A study of Mus musculus with 6 samples.

Results

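The Frizzled receptors are the products of 10 genes, Fzd1 to Fzd10, and were read here in whole FVB mouse embryos at 10.5 days of gestation. Members were the probe sets whose only gene symbol in the platform table was one of these names. This gave 26 probe sets of the 45101 on the Affymetrix mouse genome array, with every one of the 10 genes present. Of the 26, 19 passed a filter that left out the dimmest 33.3% of probe sets. The other 7 were not tested. Each of the 10 genes kept at least 1 probe set, and the brightest one of each gene, by mean log2 signal over all arrays, was used to read the gene. At that probe set all 10 genes lay above the filter in both groups, so that no gene was kept by its level in only 1 group.

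There were 3 pools from diabetic pregnancies and 3 from control pregnancies, each made of RNA from 3 embryos of different dams and read on 1 array. Diabetes was induced in the FVB dams of the exposed embryos by 2 doses of 100 mg per kg streptozotocin, which kills pancreatic beta cells, and only dams with a blood glucose over 250 mg per dl were used. Control embryos came from non-diabetic pregnancies, and the sources used here do not say whether those dams received vehicle. Only embryos of normal shape entered the pools, and pooling hides differences between single embryos. Values are signals in arbitrary units, which the authors scaled to the same mean on every array, and a ± is the standard deviation of 3 pools. In a whole embryo, a lower signal can come from fewer cells of a type or from less RNA per cell, and these cannot be told apart here.

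Frizzled proteins span the cell membrane several times and carry a cysteine-rich domain outside the cell, which binds the lipid-modified Wnt ligands. Inside the cell they recruit Dishevelled. With the co-receptors Lrp5 and Lrp6 this stabilises beta-catenin, and with Ror, Ryk or Ptk7 it directs cell polarity and movement. In the midgestation embryo these branches pattern the neural tube, neural crest, somites and limb buds and shape the closing neural folds. By sequence, Fzd1, Fzd2 and Fzd7 are close relatives, as are Fzd5 and Fzd8, Fzd9 and Fzd10, and Fzd3 and Fzd6.

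Of the 10 Frizzled genes, 6 fell in the diabetes-exposed pools and 0 rose, at an adjusted p under 0.05. The 6 were Fzd1, Fzd2, Fzd7, Fzd8, Fzd9 and Fzd10. Across all 13956 genes tested, 19.9% were called lower and 17.6% higher. Fold changes of at least 2 were found for 5 of the 10, all lower, against 6.01% of all genes. For 8 of the 10, every diabetes-exposed pool lay below every control pool, against 26.5% of all genes. The median log2 fold change of the 10 was -0.89, against -0.00025 for all genes. At an unadjusted p under 0.05 there were 7 genes, Fzd5 being the seventh.

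**Figure D1:**
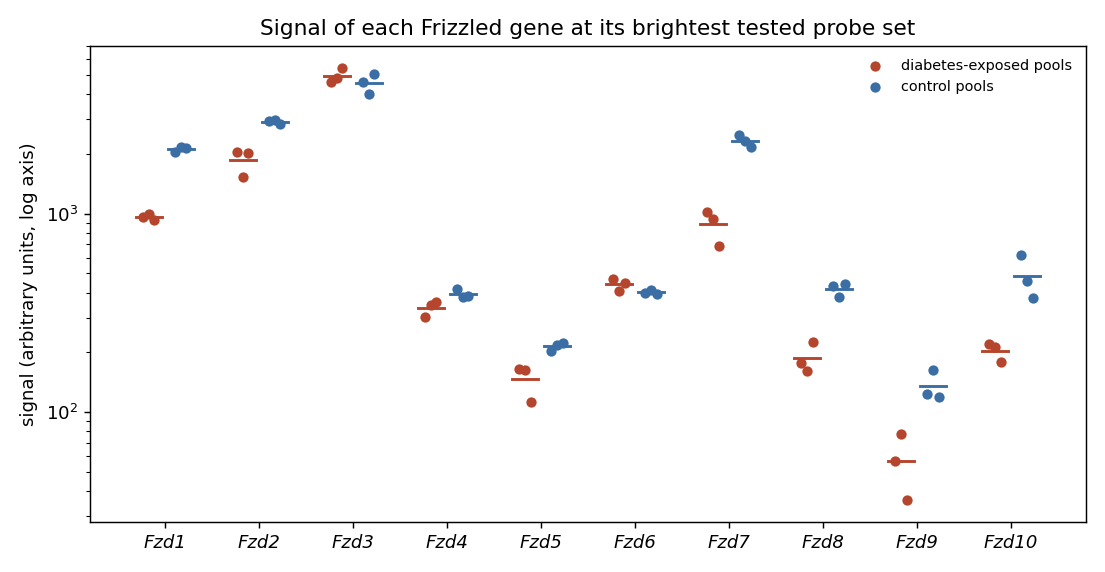
Signal (arbitrary units, vertical log axis) of each Frizzled gene at its brightest tested probe set, where each point is a pool and a short line marks the group mean, diabetes-exposed left of control. The groups are apart for 8 genes, all lower in the exposed pools, and overlap for Fzd3 and Fzd6.

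The arrays themselves differed between the groups in a way that may touch these values. Poly-A spikes, bacterial transcripts that are added to each sample, had a ratio of 3' to middle signal of 3.47 to 7.00 on the diabetes-exposed arrays and 2.07 to 2.52 on the control arrays, averaged over 8 pairs of probe sets. For actin, a transcript of the embryos themselves, 3' over 5' signal was 3.09 to 10.3 on the exposed arrays and 1.71 to 2.19 on the control arrays. Replicate 2 had the lowest of both ratios among the exposed pools. With this ratio as a covariate, 2 of the 10 genes were called lower, Fzd1 and Fzd2, and 0 higher, where 1.73% of all genes were called lower. The median log2 fold change of the 10 genes was then -0.57, against 0.029 for all genes. Because the ratio moves with the groups, the covariate also widened the errors: the standard error of Fzd1, for example, was 0.161 with it and 0.0847 without it. Exposed replicates 1 and 3 had the highest ratios. Without them, the log2 fold changes of the 6 genes that fell lay between -1.38 (Fzd8) and -0.80 (Fzd9). Those of the 4 others lay between -0.39 (Fzd5) and 0.083 (Fzd3). With 1 exposed pool left, the spread of that group is not measured.

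Fzd1, Fzd2 and Fzd7, the closest relatives of the family, all fell. These receptors have overlapping roles in convergent tissue movements and in canonical Wnt signalling in the mouse. Fzd1 had signals of 961.3, 999.4 and 935.4 in the diabetes-exposed pools, against 2039.7, 2164.4 and 2139.5 in the control pools. Both groups were narrow and lay far apart. The log2 fold change was -1.13 (SE 0.0847, 95% interval -1.32 to -0.94) with an adjusted p of 1.95e-04 by limma, or 2.19-fold lower. Adjusted for the spike ratio it stood at -1.04 (adjusted p = 0.0282), and Fzd1 passed the threshold under each of the 20 alternatives run.

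Fzd7 had signals of 1020.7, 942.4 and 688.2 in the exposed pools, against 2490.5, 2328.5 and 2166.1 in the control pools. Its log2 fold change of -1.42 (SE 0.148, adjusted p = 5.27e-04) was the largest decrease among the 10 genes at their brightest probe sets with the signals as deposited. It was -1.11 with the spike ratio, and the call was lost (adjusted p = 0.112). Exposed replicate 3 was the lowest of its group for Fzd7, and the pools of the 2 groups did not overlap.

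Fzd2 had signals of 2040.2, 1530.1 and 2019.5 in the exposed pools, against 2923.5, 2967.5 and 2843.5 in the control pools. The change was smaller, at -0.66 (SE 0.119, adjusted p = 0.00374), and here exposed replicate 2 was the lowest. Adjusted for the spike ratio, the decrease of Fzd2 was larger, at -1.14 (adjusted p = 0.0213). Centred on array medians it was -0.34 and lost its call (adjusted p = 0.0928).

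Promoter windows of RefSeq (build GRCm38.p6) were held for 6 of the 10 genes: Fzd1, Fzd4, Fzd5, Fzd7, Fzd9 and Fzd10. The windows of the 4 among them that fell are shown, to let the sequence upstream of genes that moved together be compared, beginning with the close relatives Fzd1 and Fzd7. Each is the 250 bases before the annotated start, 5′ to 3′ on the strand of the gene. Capitals mark the letters CTTTGA (the TCF/LEF motif), ACGTG (the core of the HIF motif) or TAAACA (the forkhead core) on either strand.
Fzd1 (chr5:4758217-4758466, minus strand): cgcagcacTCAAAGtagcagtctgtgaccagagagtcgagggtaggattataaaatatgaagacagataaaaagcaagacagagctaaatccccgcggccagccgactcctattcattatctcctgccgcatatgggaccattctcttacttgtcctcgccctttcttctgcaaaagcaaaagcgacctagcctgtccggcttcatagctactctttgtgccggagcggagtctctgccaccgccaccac
Fzd7 (chr1:59481897-59482146, plus strand): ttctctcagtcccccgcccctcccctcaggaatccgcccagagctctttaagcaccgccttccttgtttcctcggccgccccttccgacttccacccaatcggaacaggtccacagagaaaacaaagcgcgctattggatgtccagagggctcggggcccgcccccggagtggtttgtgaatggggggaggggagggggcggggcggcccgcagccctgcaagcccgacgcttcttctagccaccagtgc
The Fzd1 window held CTTTGA once, on the opposite strand, at position -242 from the start. The Fzd7 window held none of the 3 motifs. Of 32851 windows of this length, 13.8% held CTTTGA, 16.6% ACGTG and 12.0% TAAACA.

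Fzd9 and Fzd10 fell as well. Fzd10 is a receptor of the dorsal neural tube in the mouse embryo, and Fzd9 is known from neural and skeletal tissue. Fzd10 had signals of 219.9, 213.6 and 179.1 in the diabetes-exposed pools, against 620.6, 456.4 and 378.1 in the control pools. The control pools were spread more widely than the exposed ones, and the groups lay apart. Its log2 fold change was -1.22 (SE 0.198, 95% interval -1.67 to -0.77, adjusted p = 0.00234), and -0.90 (adjusted p = 0.340) with the spike ratio.

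Fzd9 had signals of 56.7, 77.3 and 36.1 in the exposed pools, against 124.0, 163.6 and 119.6 in the control pools, and the groups lay apart. The log2 fold change was -1.31 with a wide error (SE 0.328, 95% interval -2.06 to -0.57, adjusted p = 0.0142). The call of Fzd9 was lost without control replicate 2, with a value of -1.17 and an adjusted p of 0.0645. Without exposed replicates 1 and 3 together its log2 fold change was -0.80. Adjusted for the spike ratio it was -0.22 (adjusted p = 0.910), the change that shrank most among the 6 genes that fell.

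The windows upstream of Fzd9 and Fzd10 are given with the same marking, since this pair of relatives also fell.
Fzd9 (chr5:135251048-135251297, minus strand): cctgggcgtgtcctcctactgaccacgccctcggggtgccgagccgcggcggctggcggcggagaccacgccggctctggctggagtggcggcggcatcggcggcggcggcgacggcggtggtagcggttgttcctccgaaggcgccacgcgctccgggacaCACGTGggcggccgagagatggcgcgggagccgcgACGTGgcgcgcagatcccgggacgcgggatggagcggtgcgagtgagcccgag
Fzd10 (chr5:128600856-128601105, plus strand): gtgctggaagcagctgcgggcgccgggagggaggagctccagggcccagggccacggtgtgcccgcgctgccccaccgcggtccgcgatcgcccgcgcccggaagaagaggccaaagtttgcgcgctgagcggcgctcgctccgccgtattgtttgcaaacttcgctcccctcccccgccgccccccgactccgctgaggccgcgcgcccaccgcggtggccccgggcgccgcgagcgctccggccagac
The Fzd9 window held ACGTG 3 times when both strands are read, at -88, -87 and -53 from the start. The first pair of matches overlap within a single CACGTG, an E-box that reads the same on either strand. The Fzd10 window held none of the 3 motifs, and neither did those of Fzd4 and Fzd5. G and C made up 76.4% of the windows of both Fzd9 and Fzd10 and 65.2% of that of Fzd7, above the median of 52.4% over all windows, and 51.2% of that of Fzd1, just below it. CG dinucleotides numbered 42 in the Fzd9 window, 37 in Fzd10, 17 in Fzd7 and 12 in Fzd1, against a median of 6. The windows of Fzd4 and Fzd5, which were not called, had 72.8% and 76.4% G and C with 25 and 32 such dinucleotides. These are descriptions of the letters and say nothing of what binds there.

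Fzd5 and Fzd8, another pair of relatives, differed in their calls. Fzd8, a receptor of the anterior head and forebrain, had signals of 176.2, 160.4 and 226.9 in the exposed pools, against 430.9, 382.3 and 444.5 in the control pools. It fell by 1.17 on the log2 scale (SE 0.170, adjusted p = 0.00154), with no overlap. Adjusted for the spike ratio the value was larger, at -1.64, and just missed the threshold (adjusted p = 0.0501).

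Fzd5, which is needed for the yolk sac vessels and for the eye in the mouse, had signals of 166.0, 163.2 and 112.3 in the exposed pools, against 202.8, 218.3 and 223.0 in the control pools. The groups lay apart, but the log2 fold change of -0.57 (SE 0.203) did not pass the threshold (adjusted p = 0.0575). Its interval ran from -1.03 to -0.10. Leaving out single pools gave Fzd5 values between -0.66 and -0.38, and the adjusted p was 0.0429 without exposed replicate 2 and between 0.0675 and 0.162 without any other pool. Adjusted for the spike ratio it was -0.23 (adjusted p = 0.859). That the decrease passed for Fzd8 and not for Fzd5 does not show that the 2 genes differed, and this was not tested.

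Fzd3 and Fzd6 were the genes whose groups overlapped. Both act in planar cell polarity: in the mouse they are jointly needed for closure of the neural tube, Fzd3 guides axon tracts and Fzd6 orients hair. Fzd3 had signals of 4601.1, 4808.5 and 5452.4 in the diabetes-exposed pools, against 4617.9, 4002.2 and 5067.0 in the control pools. Its log2 fold change was 0.12 (SE 0.109, 95% interval -0.13 to 0.37, adjusted p = 0.423), an interval that leaves out a decrease as large as that of Fzd2. Fzd6 had signals of 469.2, 409.6 and 450.3 in the exposed pools, against 400.3, 411.0 and 396.2 in the control pools, a log2 fold change of 0.14 (SE 0.118, 95% interval -0.13 to 0.40, adjusted p = 0.407).

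Fzd4, the receptor for the non-Wnt ligand Norrin in the vessels of the retina, had signals of 301.4, 345.5 and 359.6 in the exposed pools, against 418.1, 381.8 and 386.7 in the control pools. The groups did not overlap, but lay close, and the log2 fold change of -0.24 (SE 0.131, 95% interval -0.54 to 0.057) was not past the threshold (adjusted p = 0.189).

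The direction of the weaker members depended on the scaling of the arrays. Centring the arrays on their medians moved the median of all genes by 0.32, quantile normalization by 0.14 and cyclic loess normalization by 0.055. With centring 5 Frizzled genes were called lower and 2 higher (Fzd3 at 0.44 and Fzd6 at 0.45). Of all 13956 genes, 1318 were then lower and 4851 higher. With quantile normalization 6 Frizzled genes were lower and 1 higher (Fzd6 at 0.41), beside 2154 and 3372 of all genes. With loess 6 were lower and 0 higher, beside 2474 and 2641 of all genes. Relative to the median of all genes, the median of the 10 was -0.89 as deposited (and after centring, which moves all genes alike), -0.93 after quantile normalization, -0.91 after loess and -0.59 after adjustment for the spike ratio.

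**Figure D2:**
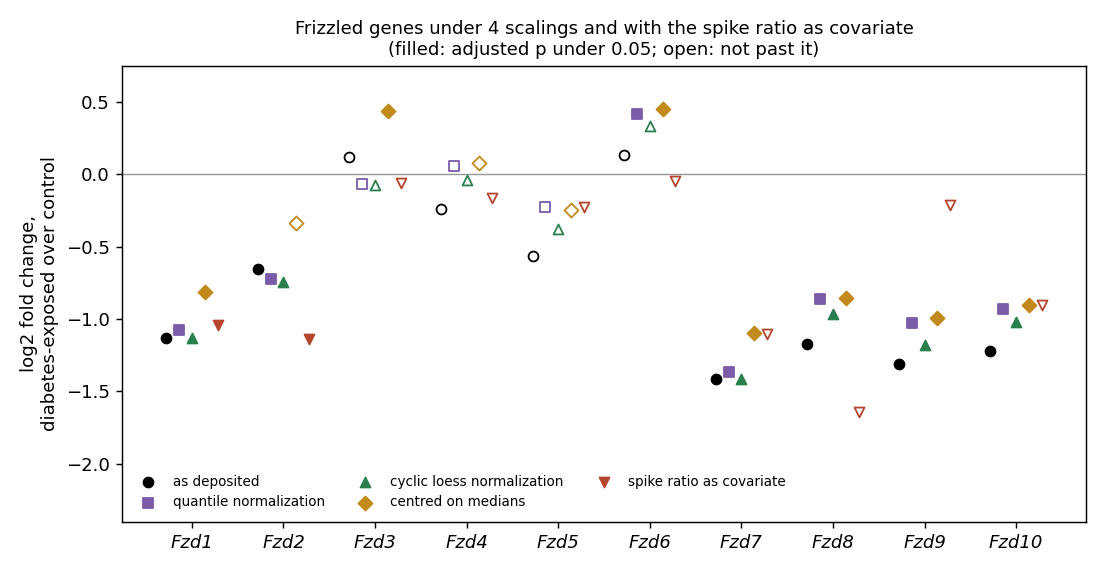
Log2 fold change, diabetes-exposed over control (vertical axis), of each Frizzled gene at its brightest probe set with the signals as deposited, under 3 other scalings and adjusted for the spike ratio; filled symbols have an adjusted p under 0.05. Fzd1 is filled under all 5, at -1.13 as deposited and -1.04 with the spike ratio, while Fzd9 stands at -1.31 as deposited and -0.22 with it.

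Several genes had more than 1 tested probe set, and these did not all move alike. Of the 19 tested probe sets, 11 were called lower and 1 higher, against 21.8% and 14.4% of all 30025 probe sets tested. The 11 include 1 that passed the filter only through the control pools, and after adjustment for the spike ratio 2 of the 19 were lower and 0 higher. Probe sets of 1 gene read RNA of the same pools and are not independent. Which part or form of the transcript each one reads was not used here.

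For Fzd1, Fzd2 and Fzd4 the fitted decrease was larger at the dimmer probe sets than at the brightest one. Within arrays, the difference between probe sets lay apart between the groups for Fzd1 and Fzd4 and overlapped for both pairs of Fzd2. The second probe set of Fzd1 (1422985_at) had signals of 8.3, 40.5 and 32.9 in the diabetes-exposed pools, against 209.9, 278.4 and 122.9 in the control pools. Its groups lay apart, but it is 1 of 2 tested member probe sets that passed the filter only through the control pools, with an exposed mean under it. The size of its change is therefore not fixed: the fitted value was -3.11 as deposited, -1.98 with 32 added to each signal and -1.37 (adjusted p = 0.634) with the spike ratio. The other Fzd2 probe sets stood at -1.30 (1418533_s_at, adjusted p = 8.3e-04) and -1.67 (1418532_at, adjusted p = 0.00168), and at -0.76 and -0.47 with the spike ratio, both without a call. The order of the fitted Fzd2 values thus turned round, with the brightest lowest in size as deposited and highest with the covariate. For Fzd4, 1419301_at had signals of 58.6, 95.1 and 109.5 in the exposed pools, against 172.0, 156.1 and 168.6 in the control pools, and fell by 0.96 (adjusted p = 0.0221). That call was lost without control replicate 1, 2 or 3 (-0.94, -1.01 and -0.95, adjusted p = 0.0741, 0.0570 and 0.0526), after centring (-0.65, 0.0758), after quantile normalization (-0.65, 0.103) and with the spike ratio (-0.76, 0.607).

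The probe sets of Fzd3 pointed in opposite directions. 1449730_s_at had signals of 818.5, 879.2 and 1063.3 in the exposed pools, against 682.3, 554.5 and 690.3 in the control pools, and rose by 0.52 (adjusted p = 0.0193). 1450135_at had signals of 285.3, 372.2 and 312.9 in the exposed pools, against 405.8, 452.1 and 443.4 in the control pools, and fell by 0.43 (adjusted p = 0.0433). 1421157_at stood at 0.18 (adjusted p = 0.396). Both Fzd3 calls were fragile: that of 1449730_s_at was lost without exposed replicate 3 (adjusted p = 0.0711) or control replicate 2 (0.0783), and that of 1450135_at was lost without exposed replicate 1 or 3 and without any single control pool, with adjusted p between 0.0792 and 0.136. Adjusted for the spike ratio, 1449730_s_at stood at 0.32 and 1450135_at at -0.069, and neither was called.

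For Fzd6 the second probe set (1448662_at) had signals of 32.7, 14.3 and 31.3 in the exposed pools, against 105.2, 46.0 and 58.6 in the control pools. It is the other one that passed the filter only through the control pools, and its fitted value, -1.43 as deposited and -0.78 with 32 added to each signal, is likewise not fixed. It was not called as deposited (adjusted p = 0.0523) or with the spike ratio (-2.78, 0.241). It passed with 32 added to each signal (0.0424) and with the replicate number as a block (0.0342). For Fzd8 the second probe set (1445815_at) had signals of 171.4, 75.7 and 82.6 in the exposed pools, against 151.3, 148.8 and 158.2 in the control pools. Exposed replicate 1 stood above every control pool there, and the log2 fold change of -0.58 was not past the threshold (adjusted p = 0.189). Without exposed replicate 1 it was -0.95 with an adjusted p of 0.0217.

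**Figure D3:**
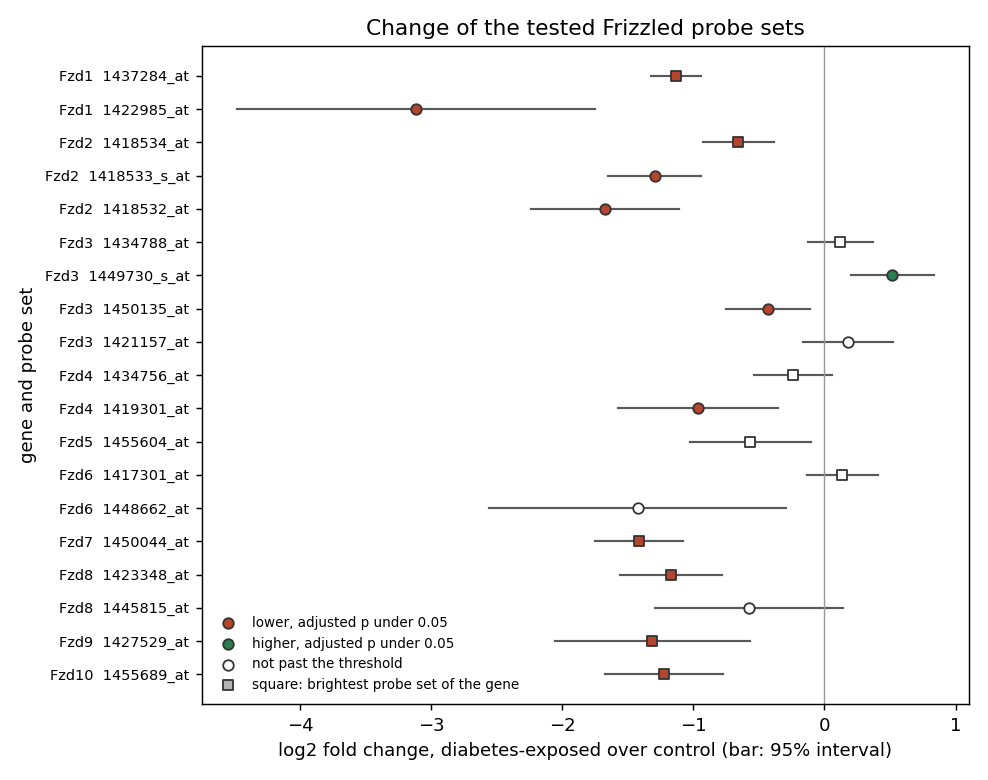
Log2 fold change, diabetes-exposed over control (horizontal axis), with its 95% interval, of the 19 tested Frizzled probe sets, grouped by gene with the brightest on top (squares) and coloured by call. Of the 19, 11 are lower and 1, a probe set of Fzd3 at 0.52, is higher, and the widest intervals belong to 1422985_at of Fzd1 (-4.48 to -1.75) and 1448662_at of Fzd6 (-2.56 to -0.30), which passed the filter only through the control pools.

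The 7 probe sets left out as dim belonged to Fzd3 (2 of them), Fzd4, Fzd5, Fzd6, Fzd7 and Fzd10. Fzd5 (1422937_at) had signals of 10.3, 4.9 and 5.3 in the exposed pools, against 50.4, 31.6 and 38.5 in the control pools, and Fzd4 (1449416_at) had 1.4, 1.6 and 2.0, against 46.7, 32.6 and 7.1. The probe set closest below the filter, 1450043_at of Fzd7, had 9.9, 14.8 and 33.6 in the exposed pools, against 113.1, 115.3 and 4.4 in the control pools, so that control replicate 3 was under every exposed pool. The other 4 had overlapping groups. At such levels the signal is close to background, and no fold change is given.

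Genes that act at the receptor, and relatives of it, were read in the same fit. The lists held 6 co-receptors, 10 relatives with a cysteine-rich domain and 21 genes of receptor turnover and partners. They also held 16 genes of the Dishevelled and planar polarity group and 19 Wnt ligands. Each gene was read at its brightest tested probe set, and the counts hold for that choice. Of all genes, 19.9% were lower and 17.6% higher, with a median of -0.00025, and 1.73% were lower with the spike ratio. All 6 co-receptors were tested, of which 3 fell and 0 rose, with a median of -0.60. Ror2, a receptor tyrosine kinase for Wnt5a, fell by 0.99 (adjusted p = 0.00262), and Ryk, a Wnt-binding receptor without kinase activity, fell by 0.72 (adjusted p = 0.0254). The canonical co-receptors Lrp5 and Lrp6 stood at -0.47 (adjusted p = 0.161) and -0.25 (adjusted p = 0.0745). None of the 6 was called after adjustment for the spike ratio.

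Of 14 tested genes of the Dishevelled and planar polarity group, 8 fell and 0 rose, with a median of -0.60. Dvl2 and Dvl1, the adaptors that Frizzled recruits, fell by 1.61 (adjusted p = 2.67e-04) and 0.51 (adjusted p = 0.0246). The authors report a larger decrease of Dvl1 at another probe set. Celsr1, a cadherin that works with Fzd3 and Fzd6 in planar polarity, averaged 220.9 ± 28.8 in the exposed pools and 797.0 ± 42.1 in the control pools (adjusted p = 1.89e-04). Scrib, a scaffold of cell polarity, fell by 1.69 (adjusted p = 1.64e-04). Dvl1, Celsr1 and Scrib were the 3 genes of this group also called with the spike ratio (adjusted p = 0.0366, 0.0213 and 0.0146), and Dvl2 was not (0.0628).

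Of 8 tested relatives with a cysteine-rich domain, 1 fell and 0 rose at their brightest probe sets, with a median of -0.010. The one that fell was Smo, the Hedgehog transducer that shares the Frizzled fold, with signals averaging 1298 ± 79.4 in the exposed pools and 2953 ± 213 in the control pools (adjusted p = 2.02e-04). Smo was also called after adjustment for the spike ratio (log2 fold change -1.14, adjusted p = 0.0312). Sfrp1, a secreted relative, stood at -0.044 (adjusted p = 0.709) at its brightest probe set and was not called. The authors report a decrease of Sfrp1 at another probe set. Of 19 tested genes of turnover and partners, 7 fell and 4 rose, with a median of -0.033. Adgra2, a co-activator of Wnt7 signalling through Frizzled, fell by 1.76 (adjusted p = 1.77e-04), and Shisa2, which keeps Frizzled from the cell surface, averaged 546.7 ± 16.0 in the exposed pools and 1094 ± 23.4 in the control pools (adjusted p = 3.54e-04). Gpc6, a glypican, and Rnf146, a ubiquitin ligase that turns over Axin, rose by 0.65 (adjusted p = 0.00558) and 0.46 (adjusted p = 0.00702). Among genes with a direct part at Frizzled, Tspan12, a partner of Fzd4, rose by 0.69 (adjusted p = 0.0414), while Ndp, which encodes the ligand Norrin, stood at -0.033 and Znrf3, which removes Frizzled from the membrane, at -0.15 (adjusted p = 0.313). After adjustment for the spike ratio 4 genes of this list were lower, Adgra2 and Shisa2 among them, and 0 were higher.

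Of 17 tested Wnt ligands, 5 fell and 1 rose, with a median of -0.41, beside 19.9% and 17.6% of all genes. None was called with the spike ratio. Wnt7b, a ligand of neural tissue, fell by 1.58 (adjusted p = 5.38e-04), while Wnt2 rose by 0.50 (adjusted p = 0.0262). Wnt5a, the ligand of the polarity branch, fell by 0.53 (adjusted p = 0.0087). For Wnt5a too, the authors report a larger decrease at another probe set.

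**Figure D4:**
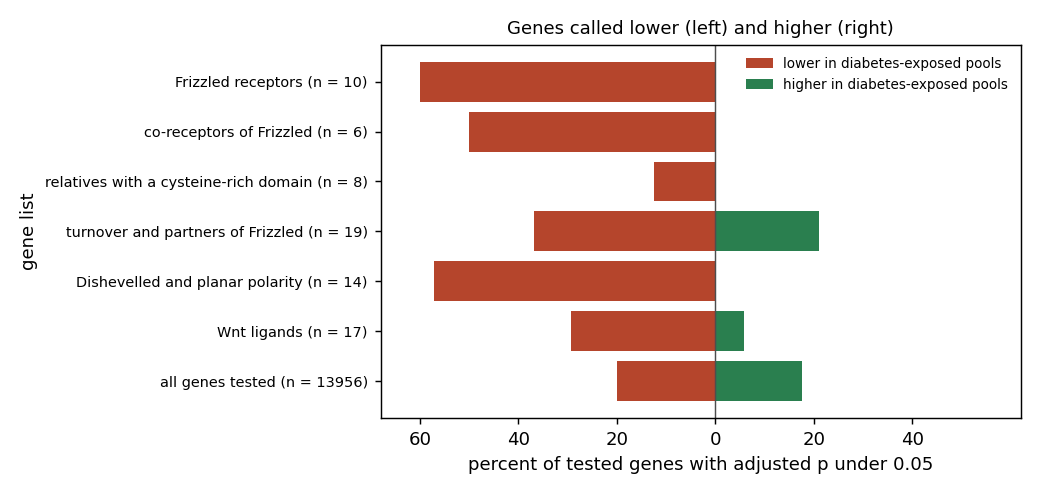
Percent of tested genes with an adjusted p under 0.05 that were lower (left of 0) or higher (right of 0) in the diabetes-exposed pools. Rows are the Frizzled receptors, 5 lists of genes that act at the receptor or are relatives of it, and all genes tested. The Frizzled receptors had 6 of 10 lower and 0 higher, where all genes had 19.9% lower and 17.6% higher.

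Markers of cell types were read beside the receptors, where 19.9% of all genes were lower and 17.6% higher. Of 10 markers of neural progenitors 7 fell and 1 rose, with a summed signal of 15240 to 18030 in the exposed pools and 22150 to 23150 in the control pools. Of 8 markers of mesenchyme and somites 5 fell and 0 rose, with sums of 10020 to 10540 in the exposed pools and 13310 to 14630 in the control pools. Of 8 endothelial markers 3 fell and 1 rose, with overlapping sums of 3219 to 4298 in the exposed pools and 4056 to 4097 in the control pools. Of 8 cardiomyocyte markers 7 rose and 0 fell, with sums of 37480 to 41100 in the exposed pools and 20760 to 25350 in the control pools. After adjustment for the spike ratio, 4 neural progenitor markers, 2 of mesenchyme and somites and 0 of endothelium were lower, and 1 cardiomyocyte marker was higher. None of 5 tested markers of primitive red cells was called. Of 3 placental and decidual markers on the array only Prl8a2, a prolactin relative of the decidua, was tested. It averaged 36.3 in the exposed pools and 6211 in the control pools, and made up nearly all of the control sum of the 3, which was 49.8 to 57.4 in the exposed pools and 5715 to 6531 in the control pools. The part of these shifts in the Frizzled values was not tested.

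The genes most like the family were sought by the mean of the standardized log2 signals of the 10 members over the 6 arrays. The highest Pearson r, between 0.9973 and 0.9997, belonged to Epas1, Ubn2, E2f2, Zfp697 and Rap2a. Such values were common, with 1812 of 13946 genes above 0.9, and the 6 points share the difference between the groups.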

How the data were processed

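RNA of whole embryos was hybridised after one-cycle labelling to 6 arrays, 3 per group. The deposited values are linear intensity signals, 1 for each probe set. The authors computed them in GCOS (MAS5) by comparing matched with mismatched probes, and scaled all arrays to a common mean. For versions and a genome build: not given in the sources used here. Precision is limited by signal over background and by the number of arrays. Detection calls were not used here.

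Log2 of the signals was taken. Of 45101 probe sets, the 64 controls and the dimmest 33.3% by mean log2 signal (under 4.74) were left out, and 30025 were tested by lmFit and trended eBayes of limma 3.58.1 (R 4.3.3), with Benjamini-Hochberg adjustment over all of them. A gene was read at its brightest tested probe set with 1 symbol. Groups came from the sample titles, and p-values measure the spread between pools. The same replicate numbers did not pair pools: the deviations of like-numbered pools correlated at 4.94e-05, 0.0761 and 0.118. The procedure was tested on simulated data, which did not carry the difference in spike ratio between the groups. Figures used matplotlib 3.10.9.

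The members and lists were chosen with earlier results of these data known. All members are named. Of each other list up to 2 genes in each direction with the smallest adjusted p could be named. Lrp5, Lrp6, Rnf43, Znrf3, Dvl1, Dvl2, Dvl3, Ndp, Tspan12 and Smo could be named too, of which Rnf43 and Dvl3 had no tested probe set. Sfrp1 is named for what the authors report at another probe set.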

Additional observations from a re-analysis of the deposited data

How the results depend on the processing

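The number of Frizzled genes called lower was 6, and between 5 and 8 under 18 of 20 alternatives: 4 scalings or pseudocounts, 2 other filters, eBayes without a trend, leaving out s_at and x_at probe sets, the mean of all probe sets, a regularized test, the replicate block, and leaving out pools. It was 2 after adjustment for the spike ratio, where 241 of all 13956 genes were lower. By a t-test like that of the methods it was 1 after Benjamini-Hochberg adjustment, where 236 of all genes were lower. At an unadjusted p under 0.05 that t-test gave 6, of which 5 also changed at least 2-fold. It was run with the filter and software named above, not those of the authors, and is not a repeat of their test. The number called higher was 0, except 2 after centring on medians and 1 after quantile normalization. Of all genes, 4851 and 3372 were higher under these scalings. Leaving out each pool in turn gave 5 to 7 lower and 0 higher. With the replicate block, 6 were lower and 0 higher.

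Directions turned for genes that were not called. Fzd4 was 0.076 after centring and 0.059 after quantile normalization. Fzd3 was -0.067 after quantile normalization, -0.076 after loess and -0.058 with the spike ratio. Fzd6 was -0.049 with the spike ratio and -0.64 at the mean of its probe sets. At that mean, which moved all genes by -0.11, Fzd4 (-0.60) and Fzd5 (-0.57) were called lower. The cause was not tested. Low signals limit Fzd9 and the dimmer probe sets, and 3 pools per group limit every value.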

Other observations

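Fzd10os, a non-coding gene that lies next to Fzd10 in the RefSeq list of GRCm38.p6, was read by 2 probe sets. Its signals were 239.6, 191.6 and 150.1 in the diabetes-exposed pools and 194.1, 224.7 and 163.0 in the control pools at the first, and 123.6, 89.0 and 85.6 in the exposed pools and 107.2, 145.5 and 93.7 in the control pools at the second. The groups overlapped at both, with log2 fold changes of -0.015 (adjusted p = 0.965) and -0.21 (adjusted p = 0.575) by limma, beside -1.22 for Fzd10. Whether Fzd10 and Fzd10os differed was not tested.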
